A study of Mus musculus with 8 samples.

Results

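A set of 10 genes of fat cells and fatty acid handling was followed in mouse cardiac fibroblasts: Pparg, Cebpa, Fabp4, Fabp5, Cd36, Plin2, Plin4, Lpl, Adipoq and Angptl4. They were chosen by name, as adipogenic factors and fatty acid uptake and storage genes, with earlier results of these data known. All 10 were found among the 54532 genes of the deposited table. The 8 libraries were made from total RNA of cardiac fibroblasts, which build the matrix of the heart, at day 7 of culture. Control cells had a vector only, and the other cells overexpressed EphrinB2, the product of Efnb2, which sits in the membrane and binds Eph receptors on neighbouring cells. Both were held either in complete medium or in medium for osteogenic differentiation, which gave 4 groups of 2 libraries: vector complete, vector osteogenic, EphrinB2 complete and EphrinB2 osteogenic. The composition of either medium, the promoter and vector behind EphrinB2, and the strain, age and number of mice were not given in the sources used here. It is not stated that the partners of a group were separate cultures. The p-values therefore reflect the spread between these libraries alone, and that spread may be technical.

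PPAR-gamma, the product of Pparg, is a nuclear receptor that heads the fat cell programme, and C/EBP-alpha, the product of Cebpa, acts with it. Their known targets in fat include the fatty acid carriers Fabp4 and Fabp5, the fatty acid importer Cd36, the triglyceride-splitting enzyme Lpl and the lipid droplet coats Plin2 and Plin4. Adipoq encodes adiponectin, a hormone that fat cells secrete, and Angptl4 encodes a secreted inhibitor of lipoprotein lipase. Several of these genes are not particular to fat: macrophages also make Fabp4, Fabp5, Cd36, Lpl and Plin2, and most cells that take up fatty acids raise Plin2 and Angptl4. Fibroblasts of many organs can be turned into fat cells in culture, where Adipoq, Plin1 and Cidec mark the mature cell.

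Genes that moved together invite a look at the sequence in front of them, so the windows of Cd36 and Plin2 are shown here. Both genes were higher in osteogenic medium, and each window holds AGGTCA, the half-site of many nuclear receptors that include PPAR-gamma. The windows of Cebpa and Plin4, also higher in osteogenic medium, do not hold it, and 2 windows of Pparg, which differed little between media, do. A link between the half-site and the levels was not tested. Each window shown runs from 250 bases before to 50 bases after a transcription start on the minus strand (RefSeq, GRCm38.p6), at chr5:17835847-17836146 for Cd36 and chr4:86670010-86670309 for Plin2. The Cd36 window lies inside the span annotated for the gene, 17781690 to 17888801, so it is not at the outermost annotated start. Capitals mark the half-site, which lies in reverse complement in both.
Cd36: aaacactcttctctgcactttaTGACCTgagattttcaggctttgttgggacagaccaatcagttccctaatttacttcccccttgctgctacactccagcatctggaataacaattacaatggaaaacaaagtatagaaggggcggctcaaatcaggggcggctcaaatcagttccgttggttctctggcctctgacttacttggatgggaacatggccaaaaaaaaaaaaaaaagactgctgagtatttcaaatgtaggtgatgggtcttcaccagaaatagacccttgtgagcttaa
Plin2: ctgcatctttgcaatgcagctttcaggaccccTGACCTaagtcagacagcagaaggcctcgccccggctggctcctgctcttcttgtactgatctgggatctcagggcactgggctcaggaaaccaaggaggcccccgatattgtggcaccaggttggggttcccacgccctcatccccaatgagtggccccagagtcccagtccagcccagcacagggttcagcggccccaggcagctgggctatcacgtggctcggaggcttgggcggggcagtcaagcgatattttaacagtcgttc
The match begins at position -228 in Cd36 and at position -218 in Plin2, counted in bases from the start. The RefSeq table held 8 windows for 6 of the 10 genes (3 of them for Pparg, and 1 each for Cebpa, Cd36, Plin2, Plin4 and Adipoq). Fabp4, Fabp5, Lpl and Angptl4 were not matched. AGGTCA was present on either strand in 4 of the 8 windows (2 of Pparg, 1 of Cd36, 1 of Plin2) and in 16.2% of all 32544 promoter windows of that length. The C/EBP motif TTGCNNAA lay in 1 window of Pparg and in 10.8% of all windows. The full PPAR-RXR element AGGTCANAGGTCA, which contains the half-site, the glucocorticoid receptor element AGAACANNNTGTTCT and its half-site TGTTCT matched none of the 8, and are held by 0.0399%, 0.00922% and 18.9% of all windows. A match describes letters only, and no match says only that these letters are not in the window.

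Levels are given as FPKM, the authors' deposited unit, in which fragments are divided by exon length and library size. Counted reads, estimated from the steps of the low FPKM values, ran from 16493662 to 20550754 per library. Efnb2 was read first as the check of the labels: its FPKM was 5.56 and 6.30 in vector complete, 1.27 and 1.39 in vector osteogenic, 31.3 and 32.9 in EphrinB2 complete, and 5.02 and 18.3 in EphrinB2 osteogenic. Every EphrinB2 library was above both vector libraries of its medium, but EphrinB2 osteogenic replicate 1, at 5.02, was below both vector libraries in complete medium. The EphrinB2 pairs agreed less well than the vector pairs. The SD of the log2 difference between partners over 12994 genes was 0.261 and 0.234 in the vector groups, 0.517 in EphrinB2 complete and 0.657 in EphrinB2 osteogenic. In both EphrinB2 groups this difference ran with exon length (Spearman's rho across genes 0.44 and 0.508, against 0.037 and -0.018 in the vector groups, where genes are not independent replicates). EphrinB2 complete replicate 2 held the highest of the 8 values for 27.3% of those genes and EphrinB2 osteogenic replicate 1 for 35.8%, so results are also given without this pair of libraries. The FPKM of all genes summed to 360600 in EphrinB2 osteogenic replicate 1 and to 253600 to 269800 in the other libraries.

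Osteogenic medium went with higher levels of most of these genes, in both kinds of cell. In vector cells 4 of the 9 genes tested rose (Cebpa, Fabp4, Cd36 and Plin4) and none fell, where 4.41% of all 12994 genes tested rose and 3.11% fell. In EphrinB2 cells 7 of 9 rose (those 4 with Fabp5, Plin2 and Angptl4) and none fell, where 6.36% of all genes rose and 5.44% fell. The median difference in log2(FPKM + 1) over the 9 genes was 0.84 in vector cells and 1.17 in EphrinB2 cells, beside -0.02 and 0.03 over all genes tested. These calls are from limma, fitted over all genes tested with a Benjamini-Hochberg adjusted p below 0.05. Adipoq was not tested because it never reached the filter of 1 FPKM in 2 libraries. Plin4 passed that filter through its osteogenic libraries alone, so it could enter the test only by being higher there. As support it adds nothing to the counts of 4 and 7, to these medians, or to later counts between media that include it.

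**Figure D1:**
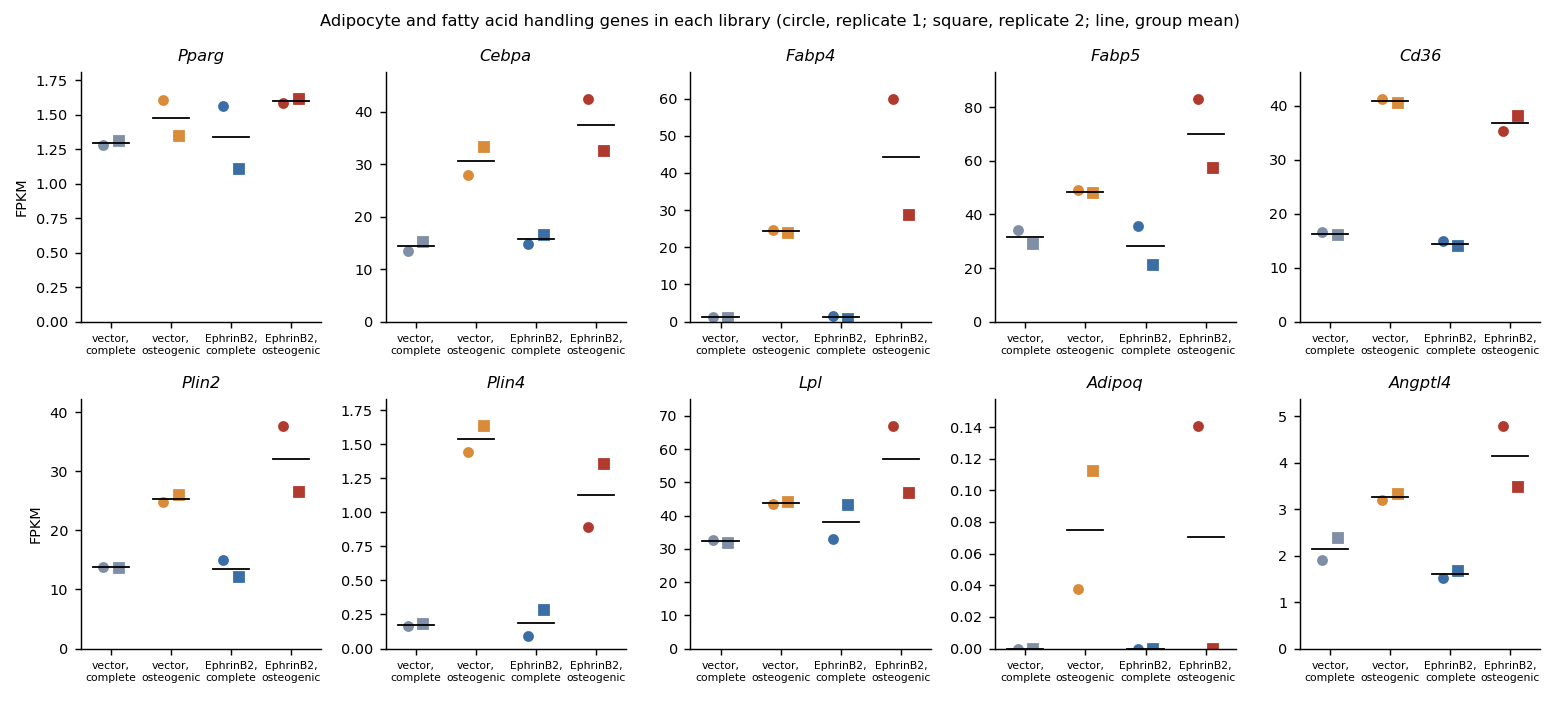
FPKM of each of the 10 genes in each of the 8 libraries, by group; circles are replicate 1, squares replicate 2, and the line is the group mean, with the axis from 0 in each panel. Fabp4 sits between 0.729 and 1.48 FPKM in complete medium and between 24.0 and 60.0 in osteogenic medium, while Pparg stays between 1.11 and 1.62 throughout.

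The 2 regulators differed from each other. Pparg (ENSMUSG00000000440, GRCm38 chromosome 6, 115360951 to 115490399, plus strand) was low everywhere. Its FPKM was 1.28 and 1.31 in vector complete, 1.61 and 1.35 in vector osteogenic, 1.56 and 1.11 in EphrinB2 complete, and 1.58 and 1.62 in EphrinB2 osteogenic. Each osteogenic pair lay above the complete pair of the same cells, by very little, and EphrinB2 complete spread across nearly the whole range of the gene. The difference in log2(FPKM + 1) for osteogenic against complete medium was 0.11 (SE 0.157, limma adjusted p = 0.838) in vector cells and 0.16 (SE 0.157, adjusted p = 0.490) in EphrinB2 cells. The 95% intervals, -0.27 to 0.48 and -0.21 to 0.54, leave room for a modest change either way. Between 54 and 96 reads per library lay behind these values.

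Cebpa (ENSMUSG00000034957, chromosome 7, 35119293 to 35121928, plus strand), a gene of 1 exon, was well above Pparg on the FPKM scale in every library. Its FPKM was 13.5 and 15.3 in vector complete, 28.0 and 33.4 in vector osteogenic, 14.9 and 16.5 in EphrinB2 complete, and 42.5 and 32.6 in EphrinB2 osteogenic. Both osteogenic groups were above both complete groups with no overlap, and within a medium the vector and EphrinB2 libraries overlapped. The mean FPKM was 2.13-fold higher in osteogenic medium in vector cells (log2 difference 1.04, SE 0.191, limma adjusted p = 0.0224) and 2.40-fold higher in EphrinB2 cells (1.20, SE 0.191, adjusted p = 0.0110). Its exon shares 51 bases with Gm45091 on the opposite strand, and the strand setting of the counting was not given in the sources used here.

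Among the fatty acid carriers, Fabp4 gave the largest difference of the 9 genes tested. Fabp4 (ENSMUSG00000062515, chromosome 3, 10204088 to 10208576, minus strand) encodes the carrier of fat cells and macrophages. Its FPKM was 1.34 and 0.958 in vector complete, 24.6 and 24.0 in vector osteogenic, 1.48 and 0.729 in EphrinB2 complete, and 60.0 and 28.7 in EphrinB2 osteogenic. Osteogenic libraries were far above every complete library, and EphrinB2 osteogenic replicate 1 was 2.09 times its partner. The mean FPKM was 21.1-fold higher in osteogenic medium in vector cells and 40.2-fold higher in EphrinB2 cells. On the log2(FPKM + 1) scale, which compresses low values, the differences were 3.56 (SE 0.346, limma adjusted p = 0.00230) and 4.36 (SE 0.346, adjusted p = 0.00098). Without the pair of libraries that stood apart the difference in EphrinB2 cells was 3.58, close to the 3.56 of vector cells. Reads behind the gene numbered 54 to 128 per library in complete medium and 2083 to 5533 in osteogenic medium. The annotation merges its exons into 1 block of 4489 bases, the whole gene, so its FPKM is per that length.

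Fabp5 (ENSMUSG00000027533, chromosome 3, 10012548 to 10016607, plus strand) lies on the same chromosome and encodes a carrier made by many tissues. Its FPKM was 34.2 and 28.8 in vector complete, 49.1 and 48.0 in vector osteogenic, 35.6 and 21.1 in EphrinB2 complete, and 83.2 and 57.2 in EphrinB2 osteogenic. The order of the means ran from EphrinB2 complete through vector complete and vector osteogenic to EphrinB2 osteogenic, and the 2 complete groups overlapped. The difference between media was 0.61 on the log2(FPKM + 1) scale in vector cells (SE 0.292, limma adjusted p = 0.328) and 1.30 in EphrinB2 cells (SE 0.292, adjusted p = 0.0349). Only the second passed the threshold, and the difference between these 2 effects did not (0.69, SE 0.413, adjusted p = 0.746). Without the pair of libraries that stood apart the value in EphrinB2 cells was 0.67, beside the 0.61 of vector cells. There are 5 annotated pseudogenes that share at least 90% identity with it over 200 bases or more, of which 1 reached 1 FPKM (7.5 at most), so reads could be split between them.

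Cd36 stood out for its even replicates. Cd36 (ENSMUSG00000002944, chromosome 5, 17781690 to 17888801, minus strand) encodes a membrane protein that brings long-chain fatty acids into fat, muscle and endothelial cells and oxidised lipoproteins into macrophages. Its FPKM was 16.5 and 16.1 in vector complete, 41.3 and 40.4 in vector osteogenic, 14.9 and 14.0 in EphrinB2 complete, and 35.3 and 38.1 in EphrinB2 osteogenic. Partner ratios lay between 0.925 and 1.06, the groups did not overlap, and EphrinB2 cells were a little below vector cells in both media. The gene was 2.51-fold higher in osteogenic medium in vector cells (log2 difference 1.28, SE 0.142, limma adjusted p = 0.00379) and 2.54-fold higher in EphrinB2 cells (1.29, SE 0.142, adjusted p = 0.00292). The 2 effects differed by 0.01 (95% interval -0.47 to 0.49).

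Lpl (ENSMUSG00000015568, chromosome 8, 68880491 to 68907448, plus strand) encodes the enzyme that frees fatty acids from circulating triglyceride, and was among the most abundant of the 10 genes, with Fabp5, on the FPKM scale. Its FPKM was 32.8 and 31.7 in vector complete, 43.4 and 44.0 in vector osteogenic, 32.9 and 43.1 in EphrinB2 complete, and 67.1 and 46.9 in EphrinB2 osteogenic. Each osteogenic pair was above the complete pair of the same cells, and EphrinB2 complete replicate 2 nearly reached the vector osteogenic level. The log2 differences of 0.43 (SE 0.224, limma adjusted p = 0.382) and 0.56 (SE 0.224, adjusted p = 0.150) missed the threshold. At 10478 bases of merged exon Lpl is longer than 92.6% of the genes tested. It is the longest of the 10 genes. In both EphrinB2 groups longer genes tended to be higher in replicate 2 than in replicate 1. Lpl was higher in replicate 2 in EphrinB2 complete, but higher in replicate 1 in EphrinB2 osteogenic. A fit corrected for exon length did not call Lpl in either kind of cell. Stretches of at least 200 bases with 90% identity or more occur in 6 other genes, of which 1 reached 1 FPKM (2.07 at most).

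Angptl4 (ENSMUSG00000002289, chromosome 17, 33773750 to 33781830, minus strand) encodes the secreted inhibitor of that enzyme. Its FPKM was 1.92 and 2.37 in vector complete, 3.19 and 3.32 in vector osteogenic, 1.53 and 1.66 in EphrinB2 complete, and 4.80 and 3.47 in EphrinB2 osteogenic. The 4 groups did not overlap: EphrinB2 cells were the lowest in complete medium and the highest in osteogenic medium. The difference between media was 0.44 in vector cells (SE 0.169, limma adjusted p = 0.213) and 0.97 in EphrinB2 cells (SE 0.169, adjusted p = 0.0152), which are ratios of mean FPKM of 1.52 and 2.59. The difference between the 2 effects, 0.53 (SE 0.240), had an unadjusted p of 0.0630 and an adjusted p of 0.746. Between 97 and 349 reads per library lay behind these values.

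Both perilipins, which coat lipid droplets, were higher in osteogenic medium. Plin2 (ENSMUSG00000028494, chromosome 4, 86648386 to 86670060, minus strand) encodes the coat found in most cell types. Its FPKM was 13.8 and 13.7 in vector complete, 24.7 and 26.0 in vector osteogenic, 15.0 and 12.1 in EphrinB2 complete, and 37.7 and 26.5 in EphrinB2 osteogenic. Osteogenic libraries were above all complete libraries, and the 2 complete groups overlapped. The gene rose 2.37-fold in EphrinB2 cells (log2 difference 1.17, SE 0.206, limma adjusted p = 0.0155). In vector cells the ratio was 1.85 and the adjusted p, 0.0597, just missed the threshold (0.84, SE 0.206).

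Plin4 (ENSMUSG00000002831, chromosome 17, 56100591 to 56109803, minus strand) encodes a coat of small droplets in fat and muscle. Its FPKM was 0.166 and 0.177 in vector complete, 1.44 and 1.64 in vector osteogenic, 0.0896 and 0.283 in EphrinB2 complete, and 0.893 and 1.36 in EphrinB2 osteogenic. In reads this was 18 and 19, 161 and 183, 10 and 27, and 106 and 151. Vector osteogenic was the highest group, and the groups of different media did not overlap. The mean FPKM was 8.97-fold higher in osteogenic medium in vector cells and 6.03-fold higher in EphrinB2 cells. On the log2(FPKM + 1) scale, which understates such low values, this was 1.11 (SE 0.184, limma adjusted p = 0.0154) and 0.84 (SE 0.184, adjusted p = 0.0329). Since its complete libraries were all below the filter, these p-values are given for completeness only. Its exons share 17 bases with Hdgfl2 on the opposite strand.

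Adipoq (ENSMUSG00000022878, chromosome 16, 23146536 to 23158028, plus strand), the hormone of mature fat cells, was at the edge of detection. It was listed at 0 in both vector complete and both EphrinB2 complete libraries. It was at 0.0374 and 0.112 FPKM in vector osteogenic, and at 0.141 and 0 in EphrinB2 osteogenic, which correspond to 1, 3, 4 and 0 reads. At this depth no difference between groups was detectable for Adipoq, and no fold is given.

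**Figure D2:**
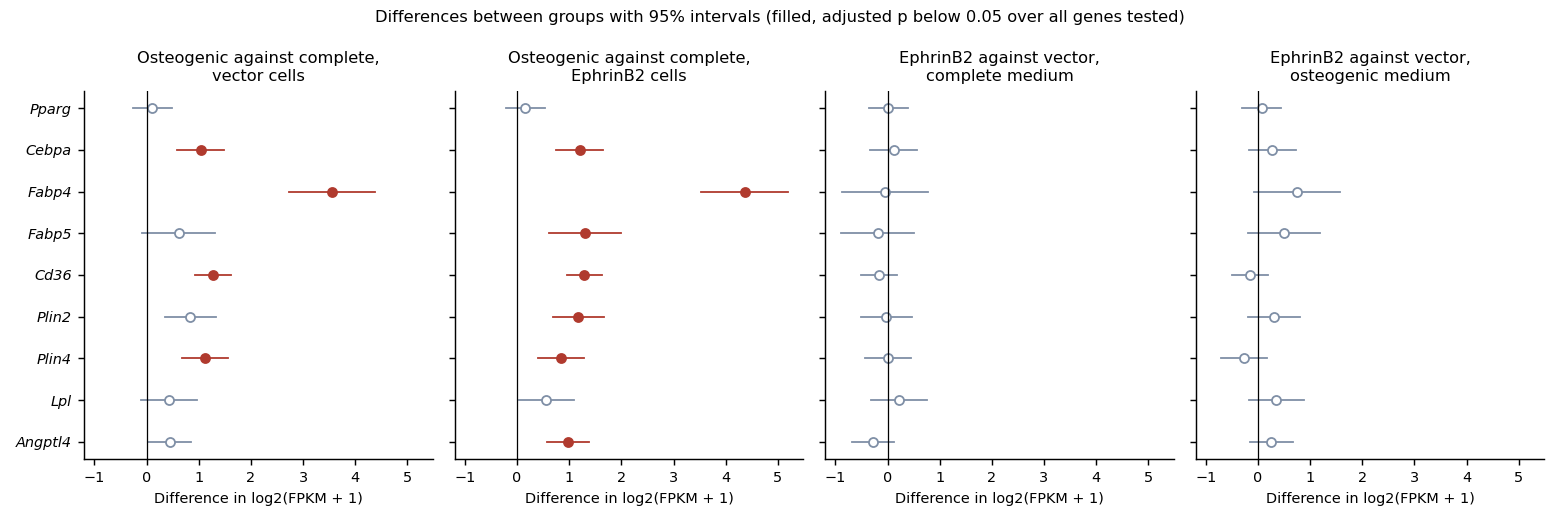
Difference in log2(FPKM + 1) for the 9 genes tested in each of 4 comparisons, with 95% intervals from limma; filled red points have an adjusted p below 0.05 over all 12994 genes tested. The points for osteogenic against complete medium lie to the right of 0 in both panels, with Fabp4 farthest at 3.56 and 4.36, and the points for EphrinB2 against vector cells are all open.

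The strength of these calls depended on which libraries set the spread. Fitted on the 4 vector libraries alone, 8 of 9 genes rose in vector cells (all but Pparg), where 18.5% of all genes tested rose and 22.1% fell. Fitted on the 4 EphrinB2 libraries alone, Fabp4 was the single gene of the 9 to rise in EphrinB2 cells, where 0.854% of all genes rose. Without EphrinB2 complete replicate 2 and EphrinB2 osteogenic replicate 1, 8 of 9 rose in vector cells and 8 of 9 in EphrinB2 cells, where 18.5% and 14.0% of all genes did. In that fit each EphrinB2 group keeps 1 library, which is assumed to vary like the vector groups. Leaving out any 1 of the 4 vector libraries left Fabp4 as the only gene past the threshold in vector cells, with 1.04% and 1.01% of all genes without vector complete replicate 1 and 2, and 1.08% and 0.893% without vector osteogenic replicate 1 and 2. In EphrinB2 cells 3 genes (Cebpa, Fabp4 and Cd36) passed without either vector osteogenic library (3.13% of all genes rose) or without EphrinB2 complete replicate 2 (2.79%), and 4 passed without either vector complete library (3.32%). Fabp4 passed in both kinds of cell under every alternative run, with adjusted p from 0.000175 to 0.0331 in vector cells and from 0.000497 to 0.0170 in EphrinB2 cells.

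By library, without a test, all 9 genes tested were higher in both vector osteogenic libraries than in both vector complete libraries, a pattern that 34.4% of all genes tested showed upward and 38.8% downward. In EphrinB2 cells the same was so of all 9, against 24.3% of all genes upward and 23.6% downward. Plin4 could be among the 9 only through its osteogenic libraries, so it adds nothing to either count. Among the 9 genes tested, EphrinB2 osteogenic replicate 1 held the highest value of all 8 libraries for Cebpa, Fabp4, Fabp5, Plin2, Lpl and Angptl4. It did so for 35.8% of all genes tested. Adipoq, not tested, was also highest there, at 4 reads beside 3 in vector osteogenic replicate 2. The highest value lay in EphrinB2 osteogenic replicate 2 for Pparg, and in the vector osteogenic libraries for Cd36 and Plin4.

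Between EphrinB2 and vector cells none of the 9 genes passed the threshold in either medium. Efnb2 itself did not pass either, at log2 differences of 2.26 (adjusted p = 1.0) and 2.21 (adjusted p = 0.567) and ratios of mean FPKM of 5.41 and 8.76, so a gene that misses the threshold here is not shown to be unmoved. In complete medium 1 of the 12994 genes tested passed in limma (0.0077%; 167 at an unadjusted p below 0.05), and in osteogenic medium 0 passed (0.0%; 441 at an unadjusted p below 0.05). Among the 9 genes in complete medium the log2 differences ran from -0.27 for Angptl4 to 0.22 for Lpl. Lpl was higher in both EphrinB2 libraries than in both vector libraries, and Cd36 and Angptl4 were lower in both (14.3% and 11.5% of all genes were higher or lower in this way). In osteogenic medium Fabp4, Fabp5, Plin2, Lpl and Angptl4 were higher in both EphrinB2 libraries and Cd36 and Plin4 were lower (25.6% and 22.3% of all genes). Fabp4 gave the largest of these differences at 0.75 (95% interval -0.07 to 1.58, adjusted p = 0.567), an interval that includes no change and also a rise of the size seen for Cd36 between media. Without EphrinB2 osteogenic replicate 2 it was 1.27 and passed, along with 12.1% of all genes that rose; without EphrinB2 osteogenic replicate 1 it was 0.23. For the difference between the 2 medium effects 0 of 9 genes and 0.0% of all genes passed (214 at an unadjusted p below 0.05). The comparisons between media and those between cells share libraries and are not independent of each other.

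The rest of the lipid pathway did not follow the 10 genes in 1 direction. Of 118 other genes in 7 lists, 79 were tested. In vector cells 9 rose and 8 fell, where 4.41% of all genes tested rose and 3.11% fell. In EphrinB2 cells 11 rose and 10 fell, where 6.36% of all genes rose and 5.44% fell. The same shares stand beside the counts of each list below in the fit over all 8 libraries. The median log2 difference of the 79 genes was 0.01 and -0.06, near the -0.02 and 0.03 of all genes. The direction differed from list to list. The lists, too, were chosen with earlier results of these data known, so their counts are a description.

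Among genes that burn fatty acids or spare glucose the called changes were all rises in the fit over all 8 libraries. Of 18 tested, 4 rose in vector cells, 5 rose in EphrinB2 cells and none fell. Fitted on the vector libraries alone, 6 rose and 3 fell in vector cells, where 18.5% of all genes rose and 22.1% fell. Pdk4, the kinase that shuts glucose carbon out of the mitochondria when fatty acids are burned, went from 7.83 ± 0.725 FPKM (SD, n = 2) in vector complete to 105.0 ± 6.80 in vector osteogenic. In EphrinB2 cells Pdk4 went from 6.11 ± 0.119 to 87.0 ± 24.2. Its log2 differences, 3.59 and 3.60, were of the size of those of Fabp4. Acaa2, a thiolase of mitochondrial beta-oxidation, rose by 1.75 and 1.996, and the mitochondrial carrier Ucp2 by 1.33 and 1.57 in vector and EphrinB2 cells. Also past the threshold in EphrinB2 cells was Acadm, the medium-chain dehydrogenase, at 1.00 (adjusted p = 0.0351), named after its value was seen. Cpt1a, the gate of fatty acid entry into mitochondria, was not past the threshold (-0.02 and -0.61), and is likewise named after its values were seen.

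Lipolysis split. Of 6 genes tested, the same 2 rose and the same 2 fell in both kinds of cell. Pnpla2, the first lipase to act on stored triglyceride, rose by 1.27 and 1.46 (log2), from 10.1 ± 0.750 to 25.8 ± 2.15 FPKM in vector cells. Lipe, the hormone-sensitive lipase, rose by 0.79 and 0.79 from a low level of 0.773 ± 0.00402 to 2.07 ± 0.0804 FPKM. Mgll, the monoglyceride lipase that completes the breakdown, fell by 1.15 and 1.44 on the log2 scale, and Adrb3, the adrenergic receptor that sets it off in fat, fell by 0.92 and 0.99. Lipe met the filter of 1 FPKM in 2 libraries only with its osteogenic libraries, and Adrb3 through its complete libraries alone. Each could enter the test only by being higher there, so their calls add nothing to these counts as support.

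Genes that make and desaturate fatty acids lay on the other side. Of 13 tested, none rose, and 3 fell in vector cells and 4 in EphrinB2 cells. Scd2, a stearoyl-CoA desaturase, was at 146.7 ± 4.22 FPKM in vector complete and 44.4 ± 1.17 in vector osteogenic, and fell by 1.70 and 2.03 (log2) in the 2 kinds of cell. Fads2, a desaturase of polyunsaturated fatty acids, fell by 1.57 and 2.06, and the elongase Elovl6 by 0.91 and 1.01. Fads1 fell by 1.06 in EphrinB2 cells. The median over the list was -0.44 and -0.74.

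Uptake and activation genes were mixed: of 14 tested, 1 rose and 3 fell in each kind of cell. The fatty acid transporter Slc27a1 rose by 0.87 and 0.83 (log2). The lipoprotein receptor Vldlr fell by 1.37 and 1.61, the acyl-CoA synthetase Acsl3 by 0.94 and 0.77, and Angptl8, a partner of other angiopoietin-like inhibitors of lipoprotein lipase, by 0.75 and 0.69. Of 13 genes of droplets and triglyceride synthesis, none passed in vector cells and Lpin3, a phosphatidate phosphatase, rose by 0.70 in EphrinB2 cells. Of 11 other adipogenic regulators 1 rose in both kinds of cell: Nr1h3, the oxysterol receptor LXR-alpha, by 1.38 and 1.74. It went from 4.34 ± 0.00751 to 12.9 ± 0.594 FPKM in vector cells. Of 4 secreted proteins and receptors, Nampt rose by 1.74 and 1.74, and Apln, the apelin hormone, fell by 0.95 in EphrinB2 cells. Angptl8 and Apln met the filter only with their complete libraries. They could enter the test only by being higher there, so their calls add nothing as support. Fitted on the EphrinB2 libraries alone, 1 of the 79 genes passed in EphrinB2 cells, where 1.18% of all genes tested did. Fitted on the vector libraries alone, 25 rose and 26 fell in vector cells, where 18.5% and 22.1% of all genes did. With 1 library left out, the oxidation genes that rose numbered 1 to 4 in vector cells and 4 to 11 in EphrinB2 cells, and the synthesis genes that fell 0 to 4 and 2 to 9. The fewest of each were seen without vector complete replicate 1, where 135 of all genes rose and 59 fell in vector cells, and 432 rose and 334 fell in EphrinB2 cells. The most in EphrinB2 cells were seen without EphrinB2 osteogenic replicate 2, where 3003 of all genes rose and 2683 fell.

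**Figure D3:**
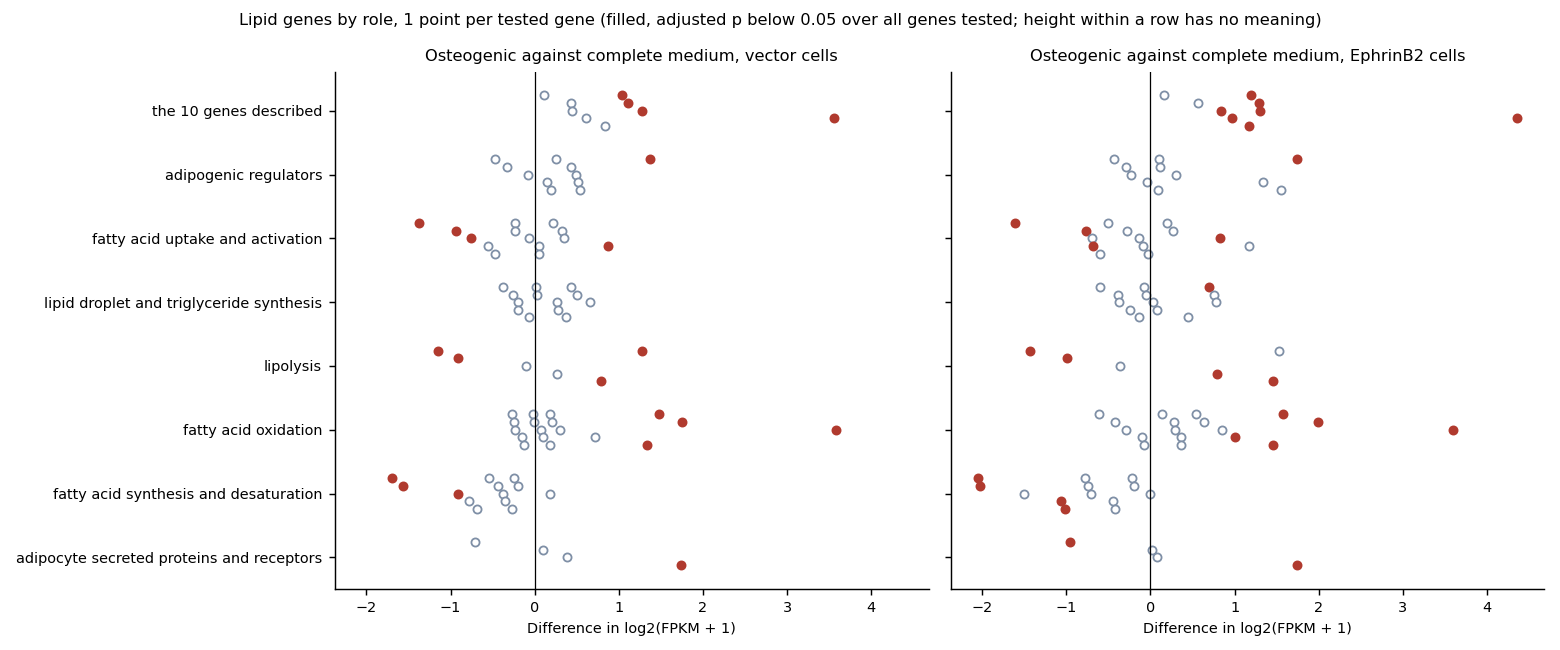
Difference in log2(FPKM + 1) between osteogenic and complete medium for each tested gene of the 8 lists, 1 point per gene, in vector cells (left) and EphrinB2 cells (right). Filled red points passed the threshold in the fit over all 8 libraries. The 10 genes described and the oxidation genes have filled points only to the right of 0, the synthesis and desaturation genes only to the left, and lipolysis has both.

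Mature fat cells left little trace in these libraries. Of the 11 adipocyte markers in the table, 8 were at 0 in both vector complete libraries, 1 in both vector osteogenic, 3 in both EphrinB2 complete and 1 in both EphrinB2 osteogenic. Plin1 reached 0.0667 FPKM at most, Cidec 0.0557, Retn 0.0925, Cfd 0.448, Pck1 0.0303 and Aqp7 0.110. Slc2a4, the insulin-responsive glucose transporter, was at 0.0460 FPKM or less in complete medium and at 0.267, 0.297, 0.378 and 0.388 in osteogenic medium. Lep, the leptin gene, was listed at 0 in complete medium and was at 0.0308, 0.231, 0.189 and 0.0773 in osteogenic medium. The sum over the 11 markers was 2.89 to 3.33 FPKM in vector complete, 3.26 to 4.28 in vector osteogenic, 3.33 to 3.93 in EphrinB2 complete and 3.49 to 4.60 in EphrinB2 osteogenic, most of it from Lipe and Adrb3. These 2 were the adipocyte markers to pass the filter, each only with libraries of the medium where it was higher. Their opposite calls therefore add nothing as support. By level, Lipe was higher in osteogenic medium and Adrb3 in complete medium, so the sum holds differences in both directions. So the genes are described here as fatty acid handling genes, and fat cells are not read from them.

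Most macrophage markers were also higher in osteogenic medium. All 18 macrophage markers were detected above 1 FPKM in some library, and 9 rose in vector cells while 15 rose and 1 fell in EphrinB2 cells, where 4.41% and 6.36% of all genes rose. Of these, Cd163, at 0.236 to 0.311 FPKM in complete medium, met the filter through its osteogenic libraries alone, so its call adds nothing to the counts. Fitted on the vector libraries alone 17 of 18 rose in vector cells, where 18.5% of all genes rose. Fitted on the EphrinB2 libraries alone 1 of 18 rose in EphrinB2 cells, where 0.854% of all genes rose. The sum of the 18 markers was 1954 to 2223 FPKM in vector complete and 4840 to 5068 in vector osteogenic. It was 948 to 1866 in EphrinB2 complete and 4295 to 8572 in EphrinB2 osteogenic. Most of the sum came from the lysozyme gene Lyz2. Cd68, a lysosomal protein of macrophages, was at 28.8 and 27.9 FPKM in vector complete, 84.9 and 87.9 in vector osteogenic, 26.9 and 27.5 in EphrinB2 complete, and 98.1 and 71.6 in EphrinB2 osteogenic. Csf1r, the receptor on which macrophages depend, was at 26.0 and 22.2, 60.8 and 64.9, 18.9 and 26.2, and 51.0 and 51.4 in the same order. EphrinB2 osteogenic replicate 1 held the highest value for 9 of the 18 markers, the vector osteogenic libraries for 8 (Csf1r among them, as for Cd36 and Plin4) and EphrinB2 complete replicate 2 for 1. In RNA of whole cultures, fewer cells of a type and less RNA per cell cannot be told apart, and the part of macrophage RNA in the levels of the 10 genes was not tested.

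The markers of other cell types moved less evenly. The sum of 12 fibroblast markers was 7374 to 7548 FPKM in vector complete, 3450 to 3465 in vector osteogenic, 7043 to 8937 in EphrinB2 complete and 3530 to 3549 in EphrinB2 osteogenic, with 1 risen and 4 fallen in each kind of cell. The fall of the sum came from Col1a1, Col1a2, Col3a1 and Fn1, which are matrix genes, while Dcn rose by 1.46 and 2.16 (log2). Pdgfra was at 41.1 to 57.7 FPKM in complete and 41.2 to 73.1 in osteogenic medium, and Vim at 605.3 to 826.4 and 550.9 to 951.8. The sum of 15 endothelial markers was 16.3 to 18.8, 48.0 to 51.1, 15.8 to 23.0 and 53.1 to 81.9 in the same order of groups, carried by Rgcc. Of the 4 endothelial markers tested, Rgcc rose and Cdh5 fell. Tek was at 5.67 to 6.65 FPKM in complete and at 7.51 or more in osteogenic medium (log2 differences of 0.80 and 0.50, adjusted p = 0.0554 and 0.137). Pecam1 was at 1.18 FPKM or less in every library with its highest osteogenic value at 0.352 (adjusted p = 0.184 and 0.179), and Cdh5 fell by 1.13 and 1.21 (log2). Cdh5 met the filter through its complete libraries alone, so its call adds nothing as support. The 12 cardiomyocyte markers summed to 0.806 to 0.998, 6.13 to 7.27, 0.953 to 0.982 and 8.78 to 15.6 FPKM, nearly all Tnnt2, with Myh6 at 0.0230 at most. The 11 smooth muscle and pericyte markers summed to 980.4 to 1119, 568.9 to 673.9, 1229 to 1275 and 782.3 to 1000.0 FPKM, with 7 tested, 0 past the threshold in vector cells and 1 fallen in EphrinB2 cells. The part of these cell types in the levels of the 10 genes was not tested.

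**Figure D4:**
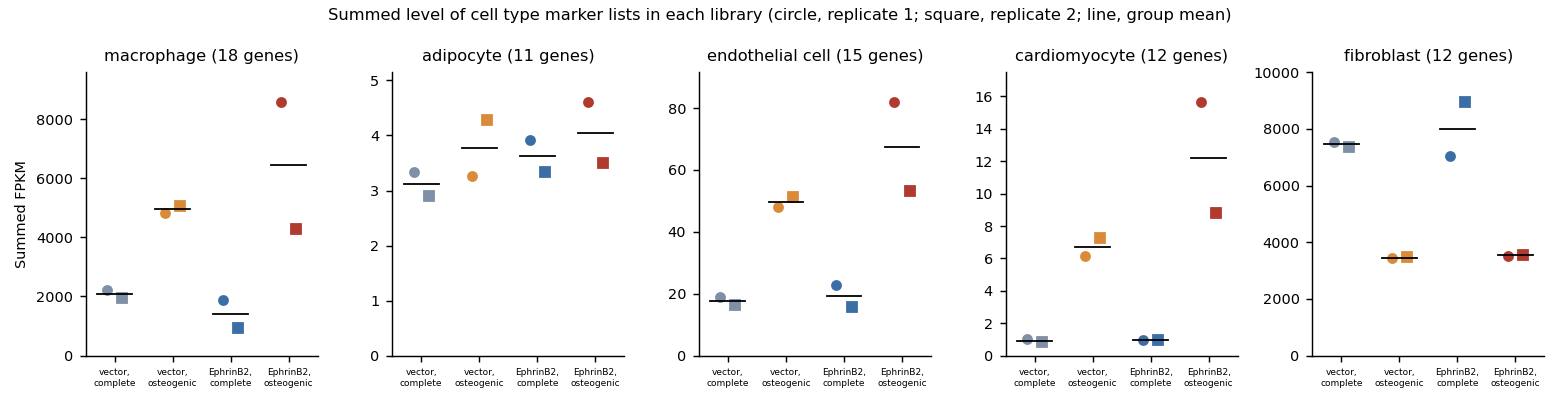
Summed FPKM of 5 marker lists in each library (circles, replicate 1; squares, replicate 2; lines, group means), each panel with its own axis from 0. The macrophage sum is at 948 to 2223 in complete medium and 4295 to 8572 in osteogenic medium, the fibroblast sum is at 7043 or more in complete and 3549 or less in osteogenic medium, and the adipocyte sum stays at 4.60 or less.

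Genes of like pattern were looked up for the carrier, the importer and the lipase inhibitor. Each gene's log2(FPKM + 1) over the 8 libraries was centred on its own mean, and the root-mean-square (RMS) difference to the member was taken over 9398 genes. Nearest to Fabp4, which itself varies by an RMS of 2.02, were Igfbp6, an IGF binding protein, at 0.153, the neuropeptide gene Nmb at 0.206 and Fcna, a ficolin of the complement system, at 0.229. All of these share its highest value in EphrinB2 osteogenic replicate 1, where Igfbp6 was at 146.1, Nmb at 56.6 and Fcna at 43.4 FPKM. Nearest to Cd36 (own RMS 0.646) were the transcription factor gene E2f6 at 0.073, Arhgap45 at 0.075 and C3ar1, the receptor of complement fragment C3a, at 0.091. Nearest to Angptl4 (own RMS 0.393) were Pctp, a phosphatidylcholine carrier, at 0.080, Arhgap9 at 0.094 and Tmem216 at 0.111. With 8 libraries in 4 groups many genes can lie this close, and these names are a description.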

How the data were processed

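The authors sequenced 8 libraries made from total RNA of mouse cardiac fibroblasts. The deposited table holds FPKM, made by the authors on build mm10. Per the submitters' processing notes the tools were CASAVA, the aligner HISAT2 2.0.5, the counter featureCounts 1.5.0-p3 and the package DESeq2 1.16.1. The annotation release, strand setting and filters were not given in the sources used here. Replicates were numbered in listed order, and nothing was paired.

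FPKM is not a count, so log2(FPKM + 1) was fitted with limma 3.58.1 (R 4.3.3) with a mean-variance trend. There was 1 mean per group over all 8 libraries, which gives 4 residual degrees of freedom. Genes with at least 1 FPKM in at least 2 libraries were tested (12994 genes), two-sided, with Benjamini-Hochberg adjustment over all of them and a threshold of 0.05. The fit was tested on simulated data. The members and lists were chosen with earlier results of these data known. Gene places and exon lengths came from GENCODE M21 (GRCm38, the assembly of mm10), which held 54495 of the file's identifiers and lacked 37. Reads per gene were estimated from the FPKM steps: 98.1% to 98.3% of values under 50 reads came out whole within 0.02 reads.

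All 10 genes are named. From each other list, up to 4 genes past the threshold per medium comparison are named, those with the largest log2 difference, a mean of at least 1 FPKM and groups that do not overlap. A gene that this rule names is not reported here. Adipocyte markers are given by value, and Cd68, Csf1r, Pecam1, Cdh5, Myh6 and Tnnt2 stand for other cell types. For likeness, the 3 nearest genes of at least 2 FPKM on average are named. The adipocyte marker Tusc5 was not matched. Alternatives were a pseudocount of 0.1, no filter on low values, equal library medians, a correction for exon length, no trend, fits on the 4 libraries of 1 kind of cell or 1 medium, and leaving out libraries.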

Additional observations from a re-analysis of the deposited data

Results flagged for a closer look

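Angptl4 was set aside for a second look because the difference between EphrinB2 and vector cells took opposite directions in the 2 media. In complete medium both EphrinB2 libraries, at 1.53 and 1.66 FPKM, were below both vector libraries, at 1.92 and 2.37. In osteogenic medium both EphrinB2 libraries, at 4.80 and 3.47, were above both vector libraries, at 3.19 and 3.32. The difference between these effects was 0.53 in log2(FPKM + 1) (SE 0.240, 95% interval -0.04 to 1.10). Its adjusted p from limma was 0.746, so it did not pass the threshold over all genes tested. The difference in osteogenic medium was 0.26 over all libraries and 0.07 without EphrinB2 osteogenic replicate 1, the library that stood apart.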

How the results depend on the processing

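No paired analysis was possible because the labels give no replicate numbers or shared cultures, and replicates were numbered in listed order. The counts below moved along with the share of all genes tested that rose. In vector cells this was 4.41% over all 8 libraries and 18.5% on the vector libraries alone. In EphrinB2 cells it was 6.36% over all 8 libraries and 0.854% on the EphrinB2 libraries alone. The count of genes that rose in vector cells, 4 of 9, was 8 when fitted on the vector libraries alone. It also moved when libraries were left out. In EphrinB2 cells the count of 7 became 1 when fitted on the EphrinB2 libraries alone and 3 to 8 when 1 library was left out; it was 5 with no filter on low values, which tests 29961 genes. The count for EphrinB2 against vector cells in osteogenic medium ran from 0 to 1. In the medium comparisons of the 9 genes, 112 of 135 values in vector cells and 104 of 135 in EphrinB2 cells kept their direction and side of the threshold, 12 and 28 lost the call, 11 and 2 gained it, and 0 and 1 changed sign.

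Among values never past the threshold, these changed sign. Corrected for exon length, Pparg was -0.012 between media in EphrinB2 cells and -0.10 between cells in osteogenic medium. The difference between medium effects became -0.13 for Pparg, -0.075 for Cebpa and -0.09 for Cd36 with that correction. Without both libraries that stood apart it was -0.077 for Pparg and -0.055 for Plin2. EphrinB2 against vector cells in complete medium became 0.21 for Fabp4, 0.18 for Fabp5, 0.12 for Plin2 and -0.10 for Plin4 without both, and -0.01 for Plin4 with a pseudocount of 0.1 or the length correction. Leaving out 1 library gave, in complete medium, -0.12 to 0.16 for Pparg, -0.31 to 0.21 for Fabp4, -0.56 to 0.18 for Fabp5, -0.17 to 0.12 for Plin2 and -0.10 to 0.13 for Plin4. In osteogenic medium it gave -0.006 to 0.15 for Pparg. For the difference between medium effects it gave -0.087 to 0.19 for Pparg, -0.024 to 0.35 for Cebpa, -0.043 to 0.066 for Cd36 and -0.12 to 0.39 for Lpl. The cause was not tested. Lpl passed in vector cells when fitted on the vector libraries alone, and in both kinds of cell without both libraries that stood apart.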

Other observations

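A few genes of the lists, picked after their values were seen, are given here as values. Cebpb and Cebpd, early factors of fat cell formation that precede Cebpa, had their highest level in 1 library. Cebpb was at 129.0 FPKM in EphrinB2 osteogenic replicate 1, 53.2 in its partner, 29.9 and 52.8 in vector osteogenic and 20.4 to 38.7 in complete medium. Cebpd was at 187.9 FPKM in that library, 78.9 in its partner, 69.6 and 80.8 in vector osteogenic and 41.4 to 55.2 in complete medium. Neither passed the limma threshold in either medium comparison (adjusted p = 0.924 and 0.631 in vector cells, 0.0943 and 0.0754 in EphrinB2 cells).

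Ppargc1a, a coactivator of PPAR-gamma, was below the filter in every library and was not tested. Its FPKM was 0.00809 and 0.0163 in vector complete, 0.337 and 0.290 in vector osteogenic, 0.0314 and 0.0276 in EphrinB2 complete, and 0.111 and 0.228 in EphrinB2 osteogenic. Gpihbp1, the endothelial protein that holds lipoprotein lipase at the vessel wall, was at 0.209 FPKM or less in all 8 libraries, while Lpl itself was at 31.7 or more.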
